A study of Mus musculus with 6 samples.

Results

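The collagen genes of embryonic mouse skin were followed through 6 single-cell RNA libraries, class by class. They are 38 genes, Col1a1 to Col28a1, of the 28000 genes in the deposited matrices. They were picked by gene symbol and not by a cut on any measured value, though with earlier results of these data known. The set is not the whole collagen family, since Col4a1, Col7a1 and Col17a1, for example, are not in it. All sums and counts below cover the 38 genes only. The skin came from the back and flank of embryos of the outbred CD1 strain, 3 to 4 embryos per library, dissociated with trypsin and sorted for live cells that exclude the dye DAPI. Controls, labelled wild type (WT), were sampled as 2 libraries on embryonic day 13.5 (E13.5) and 2 a day later (E14.5), and loss-of-function (LOF) embryos had 1 library at each of these stages. LOF embryos were PDGFRalphaCreER(Lo);beta-catfl/fl;mTmG. They carried an inducible Cre recombinase under the promoter of Pdgfra (a receptor of fibroblasts), floxed alleles of beta-catenin, the transducer of canonical Wnt signals, and a membrane Tomato to membrane GFP reporter. Tamoxifen was given to mice of this genotype at E11.5, and the labels record none for the WT controls, so genotype and drug cannot be told apart. All 6 libraries read the 3′ ends of transcripts as unique molecular identifiers (UMIs). For each library the UMIs of all cells of 1 class were added up and scaled to a common total, and every level below is on that scale (CPM). A gene's CPM counts transcript ends and is not divided by length, so levels are compared between classes and libraries and not between genes.

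Collagens are secreted proteins built from a set of chains wound into a triple helix. The fibrillar collagens (types I, II, III, V and XI) assemble into fibrils, types XII, XIV, XVI and IX bind to the surface of fibrils, type VI forms beaded filaments around cells, and type IV forms the network of basement membranes, with types XV and XVIII as basement membrane-associated collagens that carry long sugar chains. Dermal fibroblasts are the main source of types I and III in skin, cartilage of types II, IX and XI, and epithelia, endothelium, Schwann cells and muscle each lay down a basement membrane of their own.

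The matrices held 41594 barcodes with 53461986 to 86446575 UMIs per library, and 38397 cells remained after filters and removal of likely doublets. Between 45 and 103 barcode sequences were shared by any 2 libraries. Cells were put in classes by UMI gates that use no collagen gene. The fibroblast gate (at least 1 UMI of Pdgfra, few keratin and no endothelial UMIs) held 2368, 1244, 2315, 975, 3025 and 3247 cells in E13.5 control replicates 1 and 2, E14.5 control replicates 1 and 2, E13.5 LOF and E14.5 LOF, the order used for every run of 6 values below. Within it, Wnt-high cells had at least 4 UMIs of the Wnt targets Lef1, Sp5, Nkd1 and Axin2 together and Wnt-low cells at most 1. The other gates held 721 to 2081 keratinocytes, 212 to 491 muscle cells, 68 to 168 Schwann cells, 13 to 62 endothelial cells, 9 to 28 cells of a chondrocyte gate and 119 to 351 macrophages per library. Markers not used by the gates matched the names for most classes, with exceptions given below. The 6 other fibroblast markers summed to 2322 to 5894 CPM in fibroblasts against 242 to 390.4 CPM in keratinocytes, and the 6 keratinocyte markers to 1069 to 2574 CPM in keratinocytes. The chondrocyte gate went against its name in part, since 5 Schwann markers summed to 527 to 1182 CPM in it and 5 cartilage markers to 181 to 1257 CPM. Macrophages make little fibrillar collagen and were used as a gauge of free RNA. Their gate was mixed, since 3 mast cell markers summed to 1443 to 9658 CPM in it and 5 macrophage markers to 1957 to 2741 CPM. The 5 red cell markers summed to 36.6 to 5470 CPM there. The part of these other cells in the gauge was not tested. In E14.5 control replicate 2, the endothelial gate held 2952 CPM of mast cell and 1954 CPM of endothelial markers. Its Schwann gate held 1112 CPM of mast cell, 4821 CPM of red cell and 930 CPM of Schwann markers. The Schwann gate of E13.5 LOF held 1533 CPM of red cell and 1022 CPM of Schwann markers. Their part in the levels of these gates was not tested. The targeted gene, Ctnnb1, was at 199, 183, 189.7, 184, 252 and 202 CPM in fibroblasts, but a 3′ tag need not lie in the deleted part and so does not check the deletion. Libraries also stood apart. In fibroblasts, Gm42418, a gene lying over ribosomal RNA sequence, reached 1765 and 1090.4 CPM in 2 later libraries (control replicate 1 and LOF of E14.5) and 50.4 to 78.9 CPM in the other 4, and Gstp1 set replicate 2 of both control groups apart. A set of 3 batches was inferred from such genes: control replicate 1 and LOF of the earlier stage, the same pair of the later stage, and the replicate 2 controls of both stages. A comparison within a batch is given where it bears on a result.

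Most tested collagen genes were higher in fibroblasts than in keratinocytes, muscle, Schwann and endothelial cells, and a shorter list that includes Col18a1 went the other way. Of the 38 genes, 28 reached a mean of 20 CPM in some class, 19 of them in fibroblasts, and 6 stayed under 5 CPM in every class. Col19a1 and Col25a1 reached 20 CPM only in the small chondrocyte gate, on 19 and 22 UMIs over all libraries. There 3 UMIs equal 8.2 to 34.7 CPM. The 38 genes together took 7060.2, 4641, 15774, 11890.4, 7792 and 19292 CPM of fibroblast UMIs, 523, 469.8, 519, 502, 515 and 549.8 CPM of keratinocyte UMIs and 235, 172, 455, 426, 339.7 and 466 CPM of macrophage UMIs. The fibroblast sums were far above the macrophage sums in each library, and the keratinocyte sums only a little above them at E14.5. Against fibroblasts, edgeR's quasi-likelihood test on summed counts, with library as a term, called 33 of 35 tested collagen genes in keratinocytes (4 higher, 29 lower), 31 of 33 in muscle (5 higher, 26 lower), 24 of 33 in Schwann cells (6 higher, 18 lower) and 29 of 31 in endothelial cells (3 higher, 26 lower). Over all tested genes, 73.6%, 68.2%, 47.6% and 41.8% were called in these 4 comparisons, and the shares called lower were 39.0%, 36.6%, 26.5% and 24.9%. The median log2 difference from fibroblasts over the collagen genes was −3.96 in keratinocytes, −2.97 in muscle, −1.23 in Schwann cells and −3.03 in endothelial cells, against −0.04, −0.06, −0.04 and −0.16 over all genes. Libraries are pools of embryos. With library as a term, these p-values measure how the class difference varied between pools, which mix both stages and both genotypes. The labels do not say whether the replicate pools came from separate litters.

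**Figure D1:**
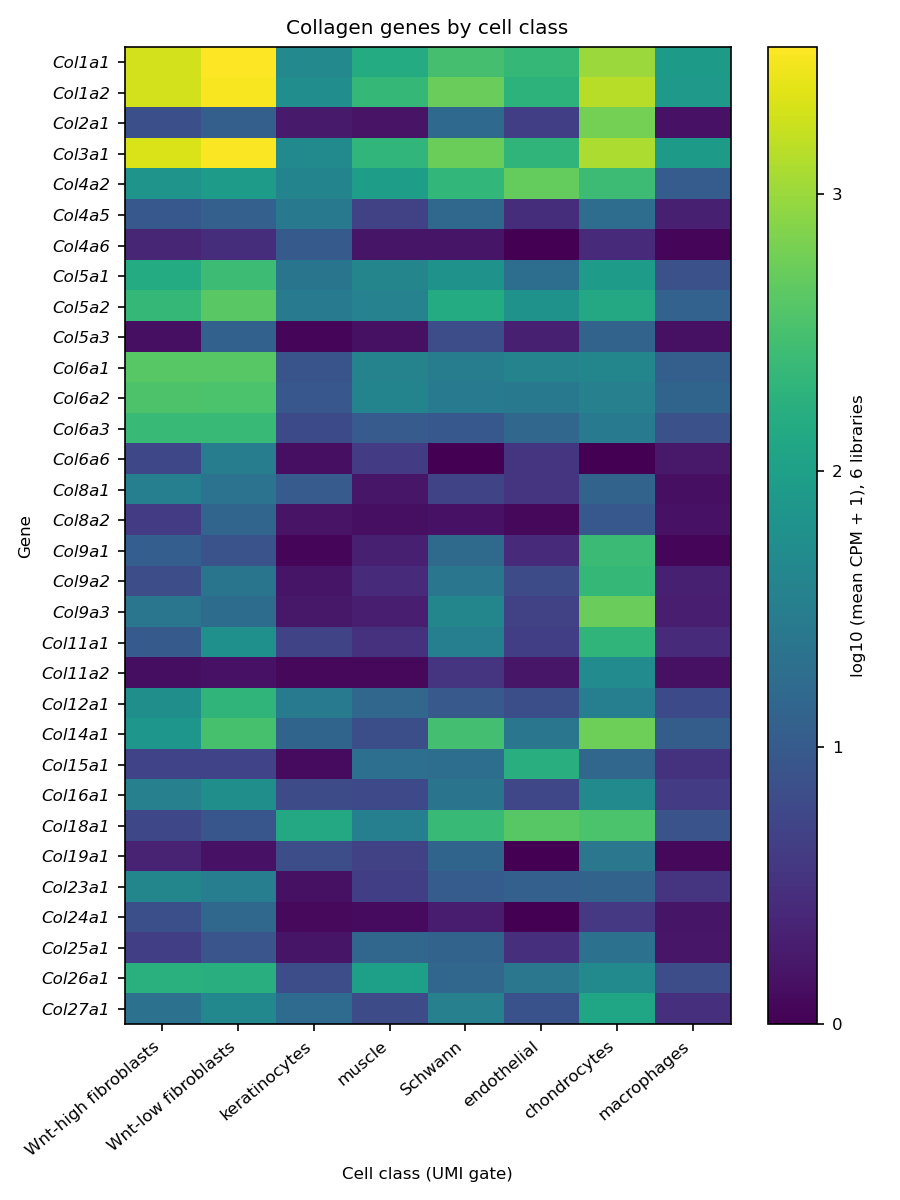
Mean level of 32 collagen genes over the 6 libraries in 8 cell classes, on a colour scale of log10 (mean CPM + 1). Rows are the genes that reach 5 CPM in at least 1 class, columns the classes. Types I, III and VI and Col5a1 and Col5a2 are brightest in fibroblasts or their Wnt classes, and types II, IX and XI in the small chondrocyte gate. Col18a1 is brighter in keratinocytes, Schwann cells, endothelial cells and the chondrocyte gate than in fibroblasts.

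The fibrillar collagens of dermis, Col1a1 and Col1a2 (the chains of type I) and Col3a1 (type III, a partner of type I in young skin) were high in fibroblasts of every library. Col1a1 (chr11:94936224-94953042, GRCm38) stood at 1899 and 1134 CPM in controls of E13.5 and 4063 and 3588 CPM in those of E14.5, with LOF at 1994 CPM (E13.5) and 4804 CPM (E14.5). In keratinocytes the same gene was at 35.6, 31.2, 40.4, 82.3, 38.7 and 43.5 CPM, and in macrophages at 49.4, 41.2, 111, 116, 61.2 and 113 CPM. Keratinocytes were below macrophages in 6 of 6 libraries for Col1a1, as they were for Col3a1 and for Col6a2, so these keratinocyte levels are read as background and not as expression. Muscle and Schwann cells were above macrophages for Col1a1 in 6 of 6 libraries, at 63.8 to 227 CPM and 54.6 to 723 CPM. Against fibroblasts the muscle level was lower (log2 −3.98, SE 0.21, adjusted p = 6.25e-06), and so was the Schwann level (log2 −3.70, SE 0.32, adjusted p = 2.97e-04). Col1a2 (chr6:4504814-4541544) was found at 1778, 1345, 3842, 3314, 1737 and 4298 CPM in fibroblasts and 219.8, 239, 848, 475, 333 and 1003 CPM in Schwann cells. Col3a1 (chr1:45311538-45349706) followed at 1746, 836, 4419.9, 2627, 2242 and 5653 CPM and 271, 179, 878, 384, 364 and 1188 CPM. The Schwann levels of both were lower than the fibroblast levels in every library (for Col3a1, log2 −2.55, SE 0.08, adjusted p = 3.38e-10). The 6 fibroblast markers summed to only 62.9 to 153 CPM in Schwann cells, and the part that free RNA has in the Schwann collagen levels was not tested.

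Type V and type XI chains seed and thin fibrils. Col5a1 was at 97.1, 71.6, 349, 178, 113 and 531 CPM in fibroblasts and 16.1, 14.3, 31.7, 17.3, 18.9 and 37.2 CPM in keratinocytes, where it exceeded macrophages in 6 of 6 libraries. Col5a2, which lies tail to tail with Col3a1 on chromosome 1 with 24614 bases between them, was at 213, 142, 534, 247, 255 and 724 CPM in fibroblasts and 30.9, 26.3, 29.1, 20.5, 23 and 29.6 CPM in keratinocytes. Both keratinocyte levels were thus above background and below fibroblasts (Col5a1 log2 −2.94, SE 0.21, adjusted p = 6.98e-06). Col5a3 was a low gene, at 0.611, 0.090, 14.1, 4.03, 2.01 and 20.4 CPM in fibroblasts, with its higher values at E14.5. Col11a1 was at 32.3, 13.1, 34.7, 8.69, 60.4 and 98.2 CPM in fibroblasts and 15.1, 3.83, 82, 13.7, 6.72 and 71.3 CPM in Schwann cells. The E14.5 replicates of Col11a1 differed by several fold in both classes, and the Schwann difference was not called (log2 −0.65, SE 0.59, adjusted p = 0.424). Col24a1 and Col27a1, fibrillar collagens of developing bone and cartilage, were at 6.28 to 16.4 CPM and 26.8 to 45 CPM in fibroblasts. Col27a1 was also above macrophages in 6 of 6 keratinocyte libraries, at 14.2 to 19 CPM.

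Type VI collagen was the clearest fibroblast group outside the fibrils. Col6a1 and Col6a2, neighbours on chromosome 10 in the same orientation with 85161 bases between them, and Col6a3 code for the chains of the main beaded filament. Col6a1 was at 254, 190.2, 609, 515, 257 and 661 CPM in fibroblasts and 4.47 to 12.2 CPM in keratinocytes. Col6a2 was at 252, 228, 408, 447, 268 and 460.5 CPM and 5.26 to 12.9 CPM. For Col6a3 the fibroblast libraries gave 89.8, 60.1, 425, 284, 86.1 and 489 CPM and the keratinocyte libraries 2.41 to 7.62 CPM. In keratinocytes these 3 genes were above macrophages in 2, 0 and 1 of 6 libraries, so no keratinocyte expression is read from them. Muscle had more, with Col6a1 at 13.9 to 60.2 CPM and above macrophages in every library, but below fibroblasts (log2 −3.24, SE 0.11, adjusted p = 4.17e-08). Col6a6, an alternative chain, was at 4.88, 1.98, 28.5, 11.2, 8.79 and 67.8 CPM in fibroblasts and had no UMI in Schwann cells of any library. A count of 0 allows up to 1.47 to 5.88 CPM there (3 UMIs), counting error only, so no fold is given for it.

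Among the fibril-associated collagens, Col12a1 and Col14a1, which coat the surface of type I fibrils, differed in their second class. Col12a1 was at 96.8, 84, 202, 133, 108 and 261 CPM in fibroblasts, 17.8, 23.1, 36.5, 20.7, 26.4 and 39.2 CPM in keratinocytes and 4.28 to 12.5 CPM in Schwann cells. Keratinocytes were above macrophages in 6 of 6 libraries and below fibroblasts (log2 −2.27, SE 0.12, adjusted p = 1.11e-06). Col14a1 reached 106, 95.9, 297, 112, 128 and 630.4 CPM in fibroblasts and 121, 145, 495, 131, 122 and 752 CPM in Schwann cells. Schwann cells were the only class called above fibroblasts for Col14a1, and the difference was small (log2 0.26, SE 0.09, adjusted p = 0.0376). Col16a1 was at 17.5 to 95.2 CPM in fibroblasts and 9.58 to 41.9 CPM in Schwann cells. Col26a1, a short collagen with an emilin domain, was at 202, 231, 149.5, 149, 183 and 111 CPM in fibroblasts and 118, 118, 87.1, 68.9, 114 and 84.1 CPM in muscle, where it was lower by little (log2 −0.54, SE 0.09, adjusted p = 2.69e-04). Col23a1, a transmembrane collagen, was at 27.5 to 42.9 CPM in fibroblasts and at 0.272 to 0.675 CPM in keratinocytes, under macrophages in all 6 libraries.

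Several of the collagens that were higher outside fibroblasts, such as Col18a1, Col4a5 and Col4a6, are known from basement membranes. Col18a1, a proteoglycan of basement membranes whose C-terminal fragment is endostatin, was higher than in fibroblasts in all 4 classes tested. It was at 7.52, 4.14, 4.64, 3.02, 8.58 and 8.93 CPM in fibroblasts, a level that exceeded macrophages in only 4 of 6 libraries. Keratinocytes had 193, 157, 119.5, 79, 134 and 118 CPM, endothelial cells 382, 295, 499, 395, 423 and 489 CPM and Schwann cells 184, 193, 319, 177, 208 and 403 CPM. No library of these 3 classes overlapped the fibroblast values. The differences from fibroblasts were largest in endothelial cells (log2 6.00, SE 0.16, adjusted p = 9.88e-12), then Schwann cells (log2 5.22, SE 0.24, adjusted p = 3.03e-06) and keratinocytes (log2 4.54, SE 0.20, adjusted p = 6.71e-07). Muscle, at 25.1, 15.7, 59.5, 27, 33.4 and 34 CPM, was higher by less (log2 2.58, SE 0.27, adjusted p = 5.69e-05), and these differences were not tested against each other. A Col18a1 UMI was found in 54.5% to 90.7% of keratinocytes per library, against 2.56% to 6.42% of macrophages (median UMIs per cell 10242 to 15913 and 7795 to 15828). Because the tags sit at the 3′ end, they cannot tell apart transcripts from the 2 starts of Col18a1 in RefSeq.

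Type IV collagen differed by chain. Col4a2, which joins the common network of most basement membranes, was at 342, 264, 715, 409, 374 and 899 CPM in endothelial cells, 125, 148, 379, 129, 94.1 and 414 CPM in Schwann cells, 42.8, 39.9, 192, 56.5, 60.3 and 175 CPM in muscle and 28.1, 39.1, 48.6, 24.8, 35.4 and 50.5 CPM in keratinocytes, with 32.2, 33.4, 121, 60.3, 37.8 and 176 CPM in fibroblasts. Endothelial cells were above fibroblasts in every library (log2 2.92, SE 0.22, adjusted p = 1.04e-04), as were Schwann cells (log2 1.5, SE 0.15, adjusted p = 6.99e-05). Muscle was called higher by less (log2 0.56, SE 0.12, adjusted p = 0.00198). Its CPM was not above that of fibroblasts in E14.5 control replicate 2 (56.5 and 60.3 CPM) or E14.5 LOF (175 and 176 CPM). The keratinocyte difference was not called (log2 −0.66, SE 0.28, adjusted p = 0.0602). Col4a5 and Col4a6, chains of a network found under epithelia, went with the keratinocytes instead. Col4a5 was at 18.2, 18.9, 35.5, 17, 22.3 and 45.1 CPM in keratinocytes and 6.41, 8.01, 15.2, 5.79, 7.48 and 22.1 CPM in fibroblasts (log2 1.45, SE 0.09, adjusted p = 1.47e-06). Col4a6 was at 6.41, 6.26, 12.9, 5.59, 6.75 and 15.6 CPM and 1.07, 1.62, 2.57, 0.63, 1.13 and 2.75 CPM in the same 2 classes (log2 2.57, SE 0.14, adjusted p = 9.81e-07). For both genes each keratinocyte library was above the fibroblasts of the same library. Muscle was below fibroblasts for both (log2 −1.35 and −1.36), and endothelial cells held no Col4a6 UMI in any library, which allows up to 3.73 to 20.8 CPM.

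Col4a6 (chrX:141165403-141474076) and Col4a5 (chrX:141475385-141689234) lie head to head with 1308 bases between their starts, on the minus and plus strand of chromosome X. Their upstream sequences are shown, with that of Col18a1, because these 3 are basement membrane collagens among the 4 genes called higher in keratinocytes (the other is Col19a1), and those of Col3a1 and Col6a3 because these fibroblast genes carry the stage and Wnt results below. Each is RefSeq sequence (GRCm38.p6) before the annotated start, read 5′ to 3′ on the gene's strand and cut where a GENCODE exon begins. Capitals mark CCAAT or its reverse complement ATTGG, and TATAAA or its reverse complement TTTATA.
Col4a6, chrX:141474077-141474326, minus strand: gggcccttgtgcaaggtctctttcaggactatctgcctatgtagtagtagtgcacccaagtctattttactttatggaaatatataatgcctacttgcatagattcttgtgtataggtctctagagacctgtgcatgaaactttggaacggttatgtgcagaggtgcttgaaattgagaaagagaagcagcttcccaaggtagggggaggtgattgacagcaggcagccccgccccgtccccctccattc
Col4a5, chrX:141475169-141475384, plus strand: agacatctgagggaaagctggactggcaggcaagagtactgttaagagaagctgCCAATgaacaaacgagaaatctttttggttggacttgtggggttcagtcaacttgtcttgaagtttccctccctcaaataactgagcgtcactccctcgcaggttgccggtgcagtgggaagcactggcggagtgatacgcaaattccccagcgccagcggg
Col18a1, chr10:77166549-77166780, minus strand: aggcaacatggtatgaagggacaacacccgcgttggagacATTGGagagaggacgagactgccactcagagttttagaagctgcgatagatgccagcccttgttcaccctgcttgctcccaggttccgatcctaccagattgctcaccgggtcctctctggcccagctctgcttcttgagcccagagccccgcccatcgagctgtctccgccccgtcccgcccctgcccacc
Col3a1, chr1:45311288-45311537, plus strand: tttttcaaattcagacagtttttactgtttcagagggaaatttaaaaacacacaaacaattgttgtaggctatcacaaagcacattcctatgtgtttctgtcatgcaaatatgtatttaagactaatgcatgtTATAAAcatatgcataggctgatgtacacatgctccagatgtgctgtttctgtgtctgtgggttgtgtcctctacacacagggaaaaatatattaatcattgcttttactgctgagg
Col6a3, chr1:90843972-90844221, minus strand: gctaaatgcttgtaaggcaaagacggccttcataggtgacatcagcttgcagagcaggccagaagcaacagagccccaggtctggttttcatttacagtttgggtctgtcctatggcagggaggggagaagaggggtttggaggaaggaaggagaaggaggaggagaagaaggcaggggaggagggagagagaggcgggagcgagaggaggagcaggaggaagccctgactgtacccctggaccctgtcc
The table of promoters held 32 windows for 29 of the 38 genes. Of these 32 windows, each 250 bases long, 9 held CCAAT or ATTGG and 4 held TATAAA or TTTATA. Over all 32851 promoters of the table, 33.8% and 12.4% held them. The 2 motifs do not overlap each other, and a match is given as a description of the letters only. The 9 genes with no window were Col1a1, Col2a1, Col4a3, Col5a2, Col9a3, Col12a1, Col14a1, Col22a1 and Col26a1.

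Col15a1, the close relative of Col18a1, split the same classes differently. It was at 209.9, 91.3, 246, 90.1, 145 and 195 CPM in endothelial cells and 1.72, 0.45, 8.85, 3.78, 1.19 and 7.14 CPM in fibroblasts (log2 5.84, SE 0.62, adjusted p = 0.00223). Keratinocytes, at 0.0894 to 0.445 CPM, were under macrophages in all 6 libraries, in contrast to their Col18a1. In muscle the level followed stage, at 2.75, 0.515, 46.2, 18, 3.46 and 38.4 CPM, so the E14.5 libraries of either genotype were all above those of E13.5. Muscle and Schwann cells were both called above fibroblasts (log2 2.16, SE 0.24, adjusted p = 3.47e-05, and log2 2.15, SE 0.24, adjusted p = 4.18e-06). Col19a1, a minor fibril-associated collagen that sits tail to tail with Col9a1 with 9205 bases between them, was low in fibroblasts at 0.126 to 1.68 CPM. Schwann cells had 3.91, 5.75, 25.5, 7.84, 3.66 and 28.5 CPM of it (log2 3.86, SE 0.43, adjusted p = 3.22e-06) and keratinocytes 9.59, 10.01, 2.42, 1.75, 6.67 and 4.17 CPM (log2 2.95, SE 0.65, adjusted p = 0.00367). Its keratinocyte values were lower at E14.5 than at E13.5 in both genotypes, while its Schwann values were higher. Col25a1, a transmembrane collagen with a role in motor innervation of muscle, was at 19.1, 37.6, 4.59, 2.57, 7.92 and 9.0 CPM in muscle and 9.08, 7.29, 3.39, 1.39, 9.6 and 4.31 CPM in fibroblasts (log2 1.20, SE 0.33, adjusted p = 0.0108).

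**Figure D2:**
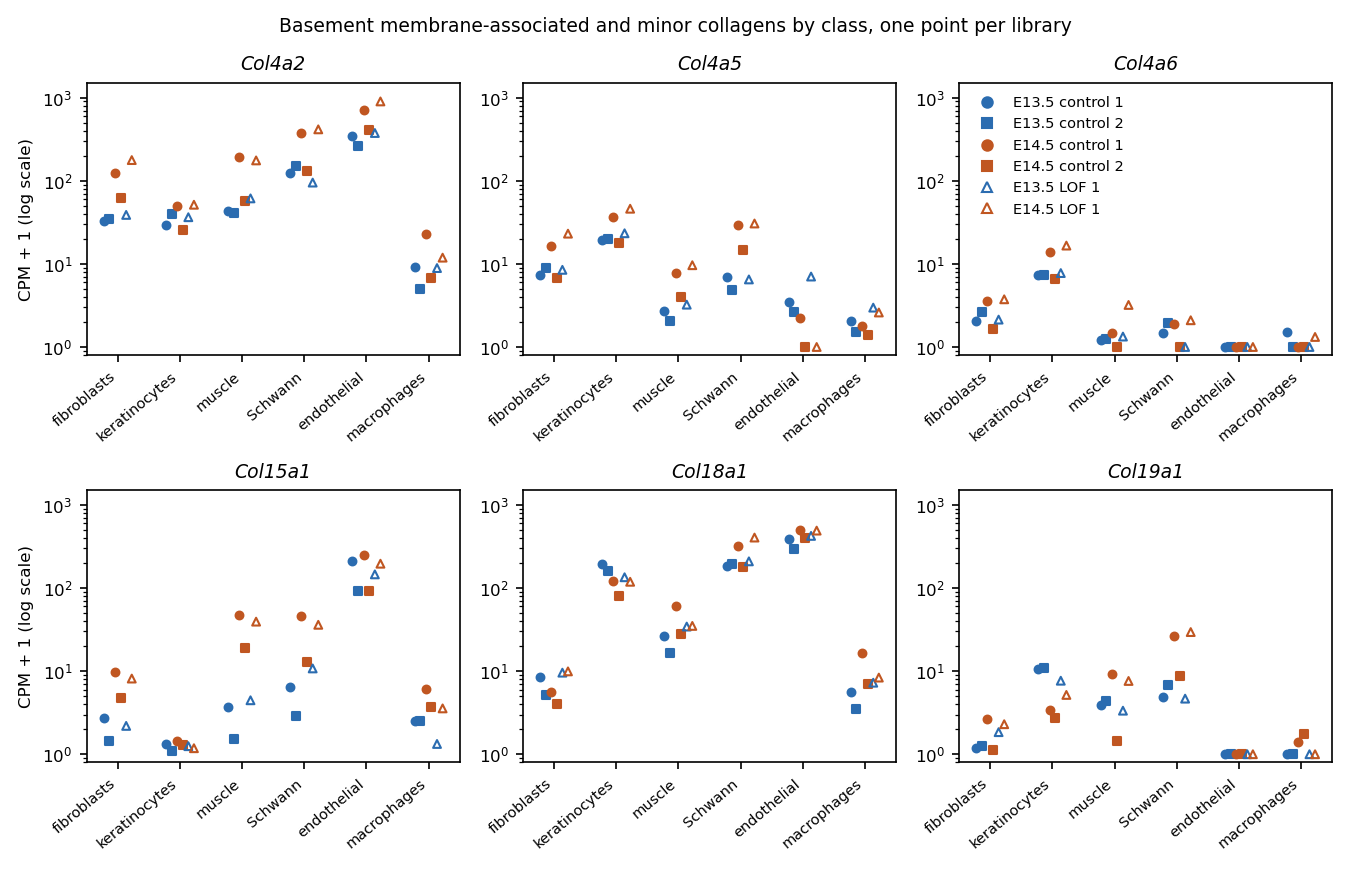
Level of 6 collagen genes, CPM + 1 on a log axis, in fibroblasts, keratinocytes, muscle, Schwann, endothelial cells and macrophages, with 1 point per library. Filled symbols are controls (circle replicate 1, square replicate 2) and open triangles LOF, in blue for E13.5 and orange for E14.5. Col18a1 lies above fibroblasts in keratinocytes, muscle, Schwann and endothelial cells, Col4a5 and Col4a6 in keratinocytes, and Col15a1 most in endothelial cells.

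The endothelial values rest on few cells. The gate held 32, 55, 52, 13, 33 and 62 cells, E14.5 control replicate 2 was left out of the test for having under 20, and removal of likely doublets had taken 10 to 33 further cells per library. Without control replicate 1 and LOF of E14.5, 19 collagen genes were called in place of 29, and Col1a1, Col1a2, Col3a1 and Col6a1 were among those that no longer passed, with log2 −3.44 for Col1a1. Their endothelial levels spread widely, Col1a1 from 30.4 to 390.4 CPM, and the 6 fibroblast markers summed to 67.3 to 388 CPM in this gate. Col24a1 and Col4a6 had no endothelial UMI in any library, so their fitted differences are not given.

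Cartilage collagens were found in a small gate built on Matn1, Acan, Snorc and Cnmd. It held 28, 9, 13, 13, 22 and 12 cells, reached 20 cells only in control replicate 1 and LOF of E13.5, and shared 6 to 9 cells per library with the Schwann gate, so no test was run. In those 2 libraries, 8 and 13 of its cells were also in the fibroblast gate. Col2a1, the fibrillar collagen of cartilage, was at 1099 CPM (exact 95% Poisson interval 994 to 1211, counting error only) in that control and 1429 CPM (1303 to 1564) in LOF, against 20.9 and 36.6 CPM in fibroblasts. Type IX chains, which sit on type II fibrils, went with it. Col9a1 was at 522 and 501 CPM, Col9a2 at 355 and 405 CPM and Col9a3 at 773 and 918 CPM. Col11a1 and Col11a2, the chains of type XI, were at 289.7 and 299 CPM and at 71.1 and 75.5 CPM. All 6 were above the fibroblasts of the same library. In both libraries 13 of the 38 genes were higher than in fibroblasts. The share over all genes was not computed, so this count is not read as a result about collagens. These levels moved with the gate. With cells in 2 gates left out, 12 and 3 cells remained and Col2a1 was at 978 and 2838 CPM, and with a gate of 8 UMIs, at 7 cells each, it was at 1578 and 2349 CPM. The count of 13 became 7 and 8 under these settings. Col18a1 was at 142 and 160.1 CPM and Col14a1 at 126 and 106 CPM in the gate, beside the Schwann markers given above, whose part in these levels was not tested. With cells in 2 gates left out, Col18a1 was at 76.8 and 0 CPM and Col14a1 at 76.8 and 51.1 CPM. Col10a1, the collagen of hypertrophic cartilage, had no UMI in the gate.

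Within fibroblasts, most collagen genes were lower in Wnt-high than in Wnt-low cells. Of 33 tested, 18 were lower and 2 higher (edgeR, library as a term, 6 libraries), against 17.8% and 20.4% of all tested genes. The 18 included types I and III, all 3 type V genes, and Col12a1, Col14a1 and Col16a1 of the fibril-associated collagens, whereas the 3 main type VI genes were not called. The median log2 difference was −0.78 over the collagen genes and 0.01 over all genes. Wnt-high cells made up 29.1%, 32.7%, 42.8% and 31% of fibroblasts in the 4 controls and 3.67% and 11.9% in E13.5 and E14.5 LOF. The gates also differed in other markers. The 5 pericyte markers summed to 24.7 to 84.4 CPM in Wnt-low and 2.13 to 16.8 CPM in Wnt-high cells. The 3 tendon markers summed to 3.58 to 63 CPM and 2.03 to 15.5 CPM. The 5 cartilage markers, at 22.04 to 116 CPM and 3.55 to 39.4 CPM, were lower in the Wnt-high cells of each library. Other lists reached higher in Wnt-high cells. The 5 muscle markers summed to 37.3 to 150 CPM in Wnt-low and 11.3 to 385 CPM in Wnt-high cells, with both maxima in E13.5 LOF. The 4 osteoblast markers summed to 8.06 to 17.9 CPM and 12 to 68.4 CPM. The part of these markers in the collagen difference was not tested.

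Col5a3 showed the widest gap, at 0.977, 0.206, 31.7, 8.35, 2.15 and 25.8 CPM in Wnt-low cells and 0.225, 0, 1.41, 0.388, 0 and 0.29 CPM in Wnt-high cells (log2 −4.53, SE 0.33, adjusted p = 1.35e-06). Its Wnt-high values were under 3 UMIs' worth in most libraries (the level of 3 UMIs was 0.265 to 1.64 CPM), so the size is poorly bounded. Col11a1 was at 45.7, 21.8, 73.9, 16.1, 63.4 and 123 CPM in Wnt-low and 14.4, 4.02, 4.24, 1.16, 26.3 and 3.77 CPM in Wnt-high cells (log2 −2.78, SE 0.56, adjusted p = 0.0124). Each library was lower in its Wnt-high cells, by more at E14.5. Col6a6 was at 8.39, 3.3, 57.9, 19.97, 9.48 and 81.7 CPM and 0.45, 0.945, 8.57, 3.88, 3.28 and 12.2 CPM (log2 −2.69, SE 0.19, adjusted p = 1.47e-06), again lower in 6 of 6 libraries. Col14a1 was at 144, 151, 528, 175, 134 and 749 CPM and 57.8, 36.2, 106, 41.5, 58 and 119 CPM (log2 −1.96, SE 0.22, adjusted p = 7.97e-04). Its Wnt-high cells ranged up to 119 CPM, below the lowest Wnt-low value of 134 CPM. Col12a1 did the same, at 128, 126, 319, 221, 111 and 296 CPM and 44.3, 31.7, 86.5, 39.6, 53.1 and 81.1 CPM (log2 −1.79, SE 0.16, adjusted p = 1.67e-04). Col8a2 and Col9a2 were called lower at −2.38 and −2.24, Col13a1 at −1.97, Col24a1 at −1.15, Col27a1 at −1.07 and Col25a1 at −1.05 on the log2 scale.

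The main fibrillar genes moved by less, in the same direction in every library for types I, III and V. Col1a1 was at 2181, 1457, 4848, 4610.3, 2042 and 5171 CPM in Wnt-low and 1416, 755, 3163, 2317, 1305 and 2805 CPM in Wnt-high cells (log2 −0.78, SE 0.06, adjusted p = 7.43e-06). Col3a1 was at 2165, 1112, 4849, 3064, 2342 and 6047 CPM and 1184, 548, 3915, 2108, 1135 and 3789 CPM (log2 −0.73, SE 0.11, adjusted p = 0.00124). Col1a2 differed by −0.62, Col5a1 by −0.80, Col5a2 by −0.97, Col16a1 by −0.83 and Col4a2 by −0.38. All of these but Col4a2 were lower in the Wnt-high cells of all 6 libraries, and Col4a2 in 5 of 6. The type VI chains gave 0.06 (Col6a1), 0.05 (Col6a2) and −0.02 (Col6a3), each with an SE of 0.06 or 0.07, so a difference as large as that of Col1a1 lies well outside their error. Col6a3 was at 100.3, 54.2, 412, 281, 87.2 and 501 CPM in Wnt-low and 84.5, 69.7, 430.2, 273, 77.2 and 472 CPM in Wnt-high cells, and libraries of 1 stage overlapped between the classes. Col9a1 and Col23a1 were called higher. Col9a1 was at 11.9, 8.98, 7.33, 7.38, 16.4 and 10.1 CPM in Wnt-high and 7.66, 5.15, 2.96, 1.79, 19.5 and 5.38 CPM in Wnt-low cells (log2 0.76, SE 0.22, adjusted p = 0.017), with E13.5 LOF going the other way. Col23a1 was at 36.4, 32.4, 51.4, 38.4, 35 and 52.4 CPM and 33, 25.3, 36.9, 22.1, 31.4 and 37.8 CPM (log2 0.40, SE 0.09, adjusted p = 0.00386), higher in 6 of 6 libraries. Without control replicate 1 and LOF of E14.5, 16 of the 18 lower and neither of the higher genes passed.

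**Figure D3:**
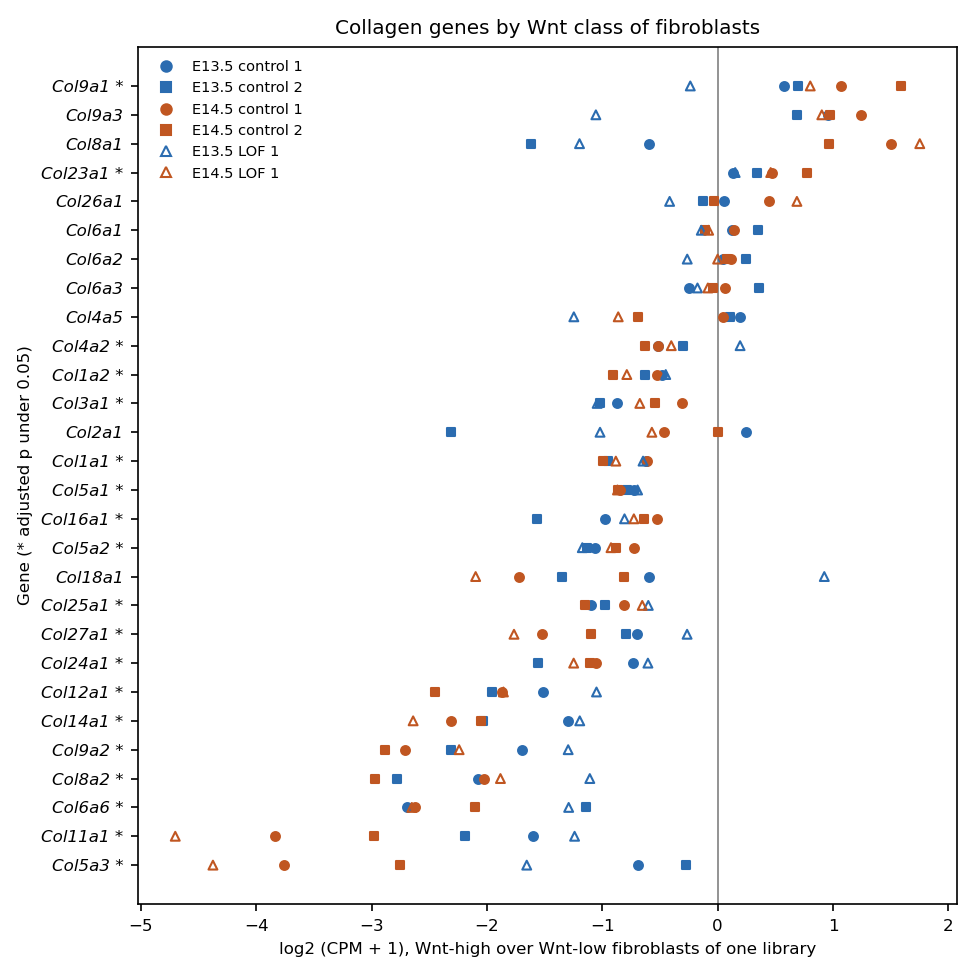
Log2 ratio of Wnt-high to Wnt-low fibroblasts of the same library, after adding 1 CPM, for 28 collagen genes. Genes are ordered by the log2 difference fitted by edgeR with library as a term. Each point is a library (filled symbols control, open triangles LOF, blue E13.5, orange E14.5), the vertical line marks no difference and an asterisk an adjusted p under 0.05. Col6a1, Col6a2 and Col6a3 lie around 0, while Col5a3, Col11a1, Col6a6, Col14a1 and Col12a1 lie to the left in all 6 libraries.

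Many genes that process collagen were lower in Wnt-high cells as well. Of 30 listed genes for folding, cross-linking and trimming of procollagen, all 30 were tested, and 21 were lower and 1 higher in Wnt-high cells, against 17.8% lower and 20.4% higher over all tested genes. The median log2 difference of the 30 was −0.44 (0.01 over all genes). Among them were the lysyl oxidases that cross-link collagen, Loxl1 (log2 −2.46), Loxl3 (−2.02) and Lox (−1.77), the prolyl hydroxylases P3h2 (−1.78) and P4ha3 (−1.60), and the procollagen peptidase Tll1 (−2.47). Loxl4 was the higher one (0.96). Of 15 collagen receptor and cleavage genes, 12 were tested, and 6 were lower and 3 higher (all genes 17.8% and 20.4%), with a median of −0.20. The count of 3 higher is near the share of all genes. The collagen receptor integrin Itga11 (0.93) and the protease Mmp16 (0.81) were higher, Timp3 (−1.25) and Mmp9 (−2.13) lower. Between keratinocytes and fibroblasts, 28 of the 30 processing genes were lower in keratinocytes and 1, P3h2, was higher (0.47), against 39.0% and 34.6% of all genes. Of 14 receptor and cleavage genes tested there, 10 were lower and 2 higher, with Itga2 (5.40) and Ddr1 (2.03) higher and Ddr2 (−5.54) and Itga11 (−5.04) lower in keratinocytes.

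From E13.5 to E14.5, fibroblasts of the control libraries held more of most collagen genes, but with 2 libraries per stage no single gene passed edgeR's test with stage as the only term. Of 33 genes tested, 0 were called by edgeR, against 0.186% of all genes (0.126% higher, 0.0594% lower). By edgeR 21 had an unadjusted p under 0.05, against 2152 of all 13458 genes tested. DESeq2 called 13 (11 higher, 2 lower), against 580 of 13458 (353 higher, 227 lower). With the inferred batch as a term in all 6 libraries, edgeR called 18 of 36 (15 higher, 3 lower) and 1675 of 15101 genes in all. In that fit stage is compared only within replicate 2, as 1 library against 1, since the other 2 batches each hold 1 stage. Its 1 residual degree of freedom comes from the genotype contrast of those batches. The calls of that fit thus hold no spread between libraries of a stage and are given only to show dependence on the fit. Of the 28 genes with at least 5 CPM, 16 were higher in both E14.5 controls than in either E13.5 control and 6 were lower. Over all genes at that level, 20.1% and 28.6% did so. The median log2 change was 0.61 over the tested collagen genes and 0.03 over all genes. Counts of calls moved from 2 to 16 when a library was left out, the largest without E14.5 control replicate 2, and the smallest without E14.5 control replicate 1.

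Col6a3 had the smallest adjusted p, at 89.8 and 60.1 CPM in controls of E13.5 and 425 and 284 CPM in those of E14.5, with LOF at 86.1 CPM (E13.5) and 489 CPM (E14.5) (log2 2.26, SE 0.30, adjusted p = 0.0555). Both E14.5 controls were thus well above both E13.5 controls, and the LOF libraries fell in with their stage. The share of fibroblasts with a Col6a3 UMI was 49.4% and 35.9% in the E13.5 controls and 93.4% and 79.9% in the E14.5 controls, against 3.82% to 9.75% of macrophages. Col5a1 was at 97.1 and 71.6 CPM at the earlier and 349 and 178 CPM at the later stage in the controls (log2 1.65, SE 0.33, adjusted p = 0.107). Col1a1, whose values are given above, had log2 1.37, SE 0.32, adjusted p = 0.128, and Col3a1 had log2 1.47, SE 0.41, adjusted p = 0.182. Neither gene's E14.5 controls overlapped its E13.5 controls. Within replicate 2, which is 1 inferred batch, the log2 change was 2.22 for Col6a3, 1.66 for Col1a1 and 1.65 for Col3a1. Col14a1 was at 106 and 95.9 CPM at the earlier and 297 and 112 CPM at the later stage, so the gap between stages was mostly in replicate 1, with 0.22 within replicate 2. Col4a2 was at 32.2 and 33.4 CPM at the earlier and 121 and 60.3 CPM at the later stage, with both E14.5 controls above both E13.5 controls (log2 1.47, SE 0.32, adjusted p = 0.121).

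A smaller set was lower at E14.5. Col2a1 was at 20.9 and 7.65 CPM at the earlier and 0.624 and 0 CPM at the later stage in control fibroblasts (log2 −5.08, SE 0.85, adjusted p = 0.0779). The 5 cartilage markers in these cells summed to 36.9 and 12.2 CPM at E13.5 and 21.5 and 15.6 CPM at E14.5, and their part in the difference was not tested. A Col2a1 UMI was held by 4.9% and 3.14% of E13.5 control fibroblasts and by 0.475% and 0% of E14.5 control fibroblasts, with 0% to 3.74% of macrophages. Col26a1 was at 202 and 231 CPM at the earlier and 149.5 and 149 CPM at the later stage, lower in both later libraries by a modest amount (log2 −0.51, SE 0.24, adjusted p = 0.354). Col13a1, Col25a1, Col9a2, Col8a2 and Col9a1 gave log2 −2.18, −1.71, −1.55, −1.43 and −1.01, none past the test.

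In keratinocytes no collagen gene passed the stage test either. Of 22 tested by edgeR 0 were called, against 0.264% of all genes (0.176% higher, 0.088% lower). By edgeR 10 had an unadjusted p under 0.05, against 1631 of all 12493 genes tested. DESeq2 called 3, against 429 of 12493. Of 19 genes with at least 5 CPM, 7 were higher and 4 lower at E14.5 without overlap, against 15.9% and 32.5% of all genes. Col19a1 was at 9.59 and 10.01 CPM at the earlier and 2.42 and 1.75 CPM at the later stage (log2 −2.18, SE 0.33, adjusted p = 0.0642) and Col11a1 at 7.97 and 7.78 CPM at the earlier and 1.63 and 0.769 CPM at the later stage (log2 −2.65, SE 0.43, adjusted p = 0.0698), both lower in both E14.5 libraries. Col18a1 was lower too, at 193 and 157 CPM at the earlier and 119.5 and 79 CPM at the later stage (log2 −0.78, SE 0.23, adjusted p = 0.244). Col14a1 was at 6.08 and 4.56 CPM at the earlier and 19.7 and 11.3 CPM at the later stage (log2 1.57, SE 0.35, adjusted p = 0.132), but macrophages held 5.53 to 17.3 CPM of it, so it is near background. Col8a1, a short-chain collagen, was at 6.48 and 5.63 CPM at the earlier and 11.9 and 13.5 CPM at the later stage (log2 1.12, SE 0.30, adjusted p = 0.194) with macrophages at 0 to 0.658 CPM. Col4a5, Col4a6 and Col4a2 were higher in replicate 1 of E14.5 and not in replicate 2, where they stood at 17, 5.59 and 24.8 CPM against 18.9, 6.26 and 39.1 CPM in replicate 2 of E13.5. In muscle, 13 of 17 genes with at least 5 CPM were higher and 2 lower at E14.5 without overlap, against 18.5% and 24.3% of all genes, and in Schwann cells 13 and 2 of 26, against 20.8% and 16.3%. Stage was not tested in these 2 classes.

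The E14.5 control replicates stood apart in collagen in fibroblasts and Schwann cells. In fibroblasts replicate 1 was above replicate 2 for 25 of 28 collagen genes with at least 5 CPM, by a median log2 of 0.58, against 0.21 over all genes, 63.8% of which were above. In Schwann cells it was above for 22 of 26, by 1.10 against 0.29 over all genes (65.1% above). The Schwann gate of replicate 2 also held the mast and red cell markers given above, whose part in this gap was not tested. In keratinocytes it was above for 10 of 19, by 0.31 against 0.14 (60.3% above), and in muscle for 13 of 17, by 0.48 against 0.22 (62.9% above). The gap was not tested against that of all genes in any class. At E13.5 replicate 1 was above replicate 2 for 24 of 28 in fibroblasts, by 0.50. Control replicate 1 and LOF of E14.5 are the libraries set apart by Gm42418. Their values lie close together for many genes, for example Col4a2 in Schwann cells at 379 and 414 CPM against 129 CPM in replicate 2.

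**Figure D4:**
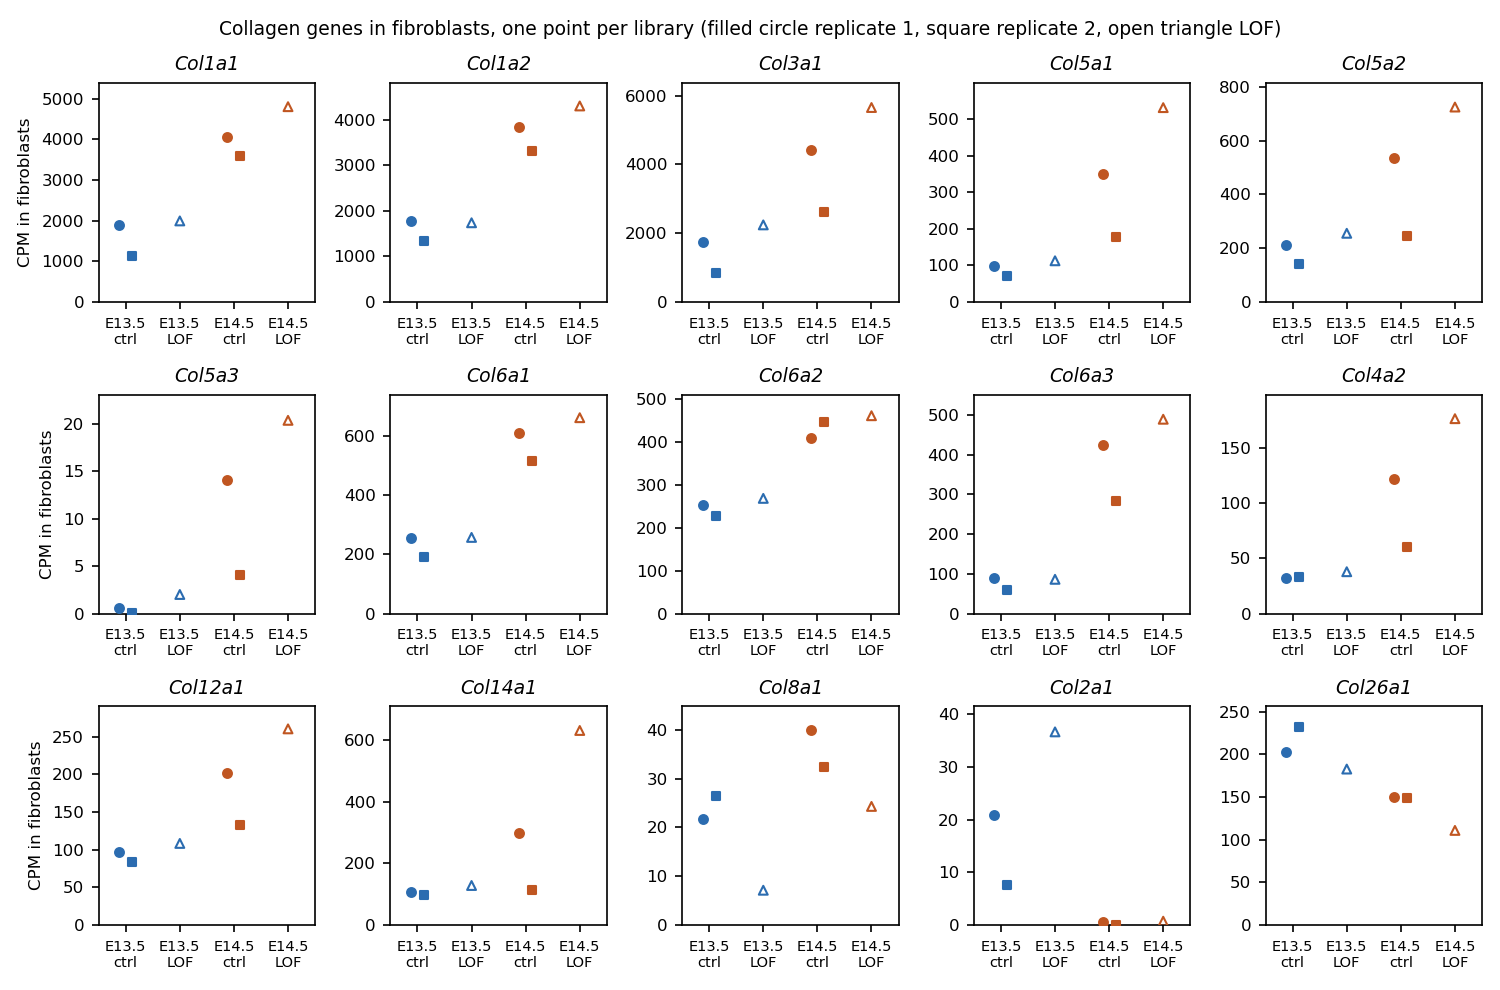
Level of 15 collagen genes in fibroblasts, CPM on linear axes from 0, with 1 point per library by stage and genotype (circles control replicate 1, squares control replicate 2, open triangles LOF, blue E13.5, orange E14.5). Within each genotype, types I, III, V and VI are higher in E14.5 than in E13.5 libraries, and Col2a1 and Col26a1 lower. For Col5a2, E14.5 control replicate 2 lies slightly below E13.5 LOF. Col8a1 is lower in LOF than in the controls of its stage.

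LOF fibroblasts as a whole held somewhat more of many collagen genes than the controls of their stage, though no gene passed the test. With stage as a term, edgeR called 0 of 35 collagen genes, against 0.0% of all genes. By edgeR 10 had an unadjusted p under 0.05, against 1282 of all 14476 genes tested. DESeq2 called 3 (Col11a1 and Col6a6 higher, Col8a1 lower), against 288 of 13353 genes. Of 28 genes with at least 5 CPM, 21 were above both controls and 3 below both at E13.5, and 23 and 3 at E14.5. Over all genes the shares were 36.1% and 35.8% at E13.5 and 30.5% and 31.2% at E14.5. The median log2 change was 0.41 over the collagen genes and 0.03 over all genes. LOF libraries also held a smaller share of Wnt-high cells, as given above, and the part of that share in these counts was not tested. In Wnt-low cells 12 of 28 genes were above and 7 below both controls at E13.5 (all genes 34.2% and 29.0%), and 18 and 3 at E14.5 (all genes 30.7% and 28.3%). Against the control of the same inferred batch, the median log2 change in Wnt-low cells was −0.02 at E13.5 and 0.17 at E14.5, compared with 0.20 and 0.34 in all fibroblasts. In Wnt-high cells it was −0.06 and −0.05.

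Col11a1 had the largest change, at 32.3 and 13.1 CPM in controls of E13.5 and 34.7 and 8.69 CPM in those of E14.5, with LOF at 60.4 CPM (E13.5) and 98.2 CPM (E14.5) (log2 1.77, SE 0.52, adjusted p = 0.39). Both LOF libraries were above both controls of their stage, in all fibroblasts and in Wnt-low cells, where they held 63.4 and 123 CPM against controls of 45.7 and 21.8 CPM at the earlier and 73.9 and 16.1 CPM at the later stage. Col6a6 gave 4.88, 1.98, 28.5, 11.2, 8.79 and 67.8 CPM in the 6 libraries (log2 1.52, SE 0.40, adjusted p = 0.363), again above both controls at both stages. Col14a1 reached 128 CPM in the earlier and 630.4 CPM in the later LOF library (log2 1.0, SE 0.40, adjusted p = 0.544). In Wnt-low cells the E13.5 LOF value of Col14a1, 134 CPM, was below both controls (144 and 151 CPM), while the E14.5 LOF value of 749 CPM was above them. Col8a1 was lower, at 21.7 and 26.4 CPM in controls of E13.5 and 39.9 and 32.4 CPM in those of E14.5, with LOF at 7.13 CPM (E13.5) and 24.3 CPM (E14.5) (log2 −1.17, SE 0.31, adjusted p = 0.363). It was below both controls at both stages in Wnt-low cells as well, at 7.57 CPM against 24 and 34.8 CPM at E13.5 and 16.4 CPM against 20.6 and 23 CPM at E14.5. Col9a2 (1.15) and Col2a1 (1.14) were highest in E13.5 LOF, at 45.7 and 36.6 CPM, the library in which the cartilage markers of the fibroblast gate summed to 113 CPM, the most of the 6. In keratinocytes, where Pdgfra stood at 0.629 to 2.33 CPM, edgeR called 0 of 24 collagen genes, against 0.0% of all genes. By edgeR 1 had an unadjusted p under 0.05, against 237 of all 12795 genes tested. DESeq2 called 0, against 5 of 12795. Col18a1 in keratinocytes gave log2 −0.07, SE 0.21, adjusted p = 0.986, and Col4a5 gave log2 0.53, SE 0.28, adjusted p = 0.986.

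The stage change differed between Wnt-high and Wnt-low fibroblasts for 4 of 32 collagen genes tested in the 4 control libraries, against 5.23% of all genes (2.46% with a positive and 2.77% with a negative difference). The stage change in Wnt-high cells lay above that in Wnt-low cells for Col8a1 and Col3a1, and below it for Col11a1 and Col9a2. Col9a2 was lower at E14.5 in both classes. Col8a1 was at 15.5 and 10.6 CPM at the earlier and 60.2 and 45.8 CPM at the later stage in Wnt-high cells and 24 and 34.8 CPM at the earlier and 20.6 and 23 CPM at the later stage in Wnt-low cells. It was thus higher at the later stage in the Wnt-high cells of both replicates and lower in the Wnt-low cells of both (difference of the stage changes log2 2.42, SE 0.34, adjusted p = 0.00732). The E14.5 LOF library held 57.6 CPM in its Wnt-high cells, near the E14.5 controls, and 16.4 CPM in its Wnt-low cells. Col11a1 was at 14.4 and 4.02 CPM at the earlier and 4.24 and 1.16 CPM at the later stage in Wnt-high and 45.7 and 21.8 CPM at the earlier and 73.9 and 16.1 CPM at the later stage in Wnt-low cells (log2 −2.21, SE 0.28, adjusted p = 6.01e-05), so its Wnt-high values were lower at E14.5 within each replicate. Col9a2 was at 9.91 and 2.6 CPM at the earlier and 1.06 and 0.388 CPM at the later stage and 34.3 and 16.9 CPM at the earlier and 12.5 and 9.24 CPM at the later stage in these classes (log2 −1.63, SE 0.44, adjusted p = 0.0391). Col3a1 was at 1184 and 548 CPM at the earlier and 3915 and 2108 CPM at the later stage and 2165 and 1112 CPM at the earlier and 4849 and 3064 CPM at the later stage, a larger relative gain in Wnt-high cells (log2 0.54, SE 0.10, adjusted p = 0.00766). Without E14.5 control replicate 1, 2 collagen genes were called, and of these 4 only Col3a1 still passed (Col8a1 was at log2 1.98 with adjusted p = 0.115). Col6a3, Col1a1 and Col5a1 had differences of 0.05, −0.01 and −0.08 with SEs of 0.12 to 0.21, none past the test.

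**Figure D5:**
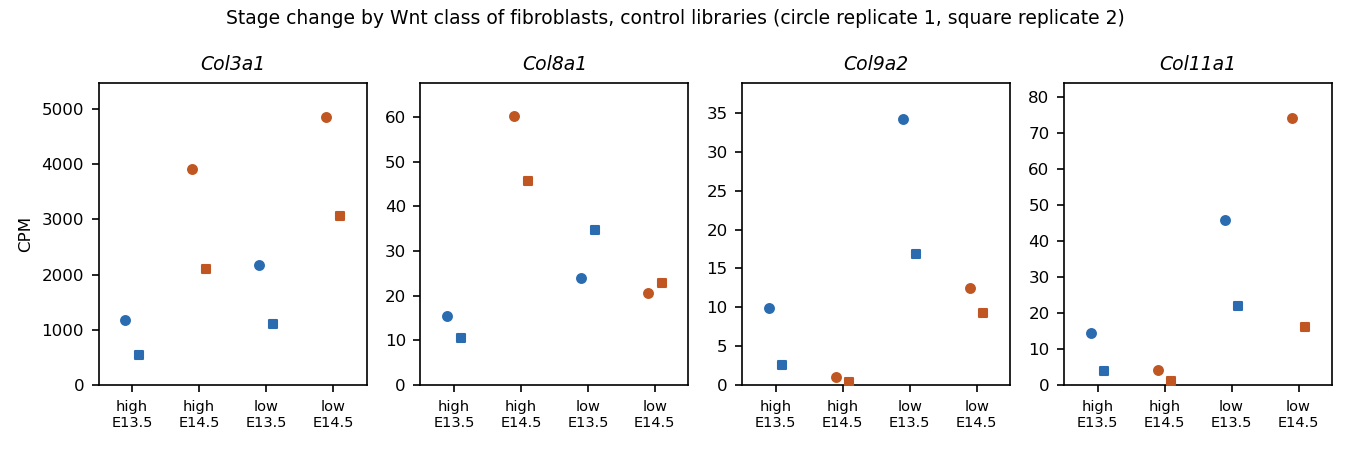
Level in CPM, on linear axes from 0, of the 4 collagen genes whose stage change differed by Wnt class, in Wnt-high and Wnt-low fibroblasts of the 4 control libraries (circles replicate 1, squares replicate 2, blue E13.5, orange E14.5). Col8a1 is higher at E14.5 in Wnt-high cells and not in Wnt-low cells, and Col11a1 and Col9a2 approach 0 in Wnt-high cells at E14.5.

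The 6 genes that stayed under 5 CPM in every class were Col10a1, Col4a3, Col22a1, Col28a1, Col4a4 and Col13a1. Their highest class means were 0.00847, 0.0288, 1.1, 1.68, 1.68 and 2.96 CPM. Col4a3 and Col4a4, chains of the mature kidney and lung network, lie head to head on chromosome 1 with 71 bases between them. Col4a4 was called lower in keratinocytes than in fibroblasts (log2 −1.70, SE 0.48, adjusted p = 0.0107), and Col4a3 had 2 UMIs, both in keratinocytes. Col13a1, a transmembrane collagen, was at 5.54 and 4.74 CPM at the earlier and 1.21 and 1.19 CPM at the later stage in Wnt-low control fibroblasts, lower at E14.5 in both replicates. Each of the 38 genes had at least 1 UMI in some class. Col8a2, a partner of Col8a1, was at 14, 5.67, 3.74, 3.4, 23.4 and 5.69 CPM in fibroblasts, with both E14.5 controls below both E13.5 controls.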

How the data were processed

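Single-cell RNA of embryonic mouse skin was counted with the 10x 3′ v2 chemistry and sequenced on an Illumina instrument. The deposited UMI counts per gene and cell were made by the authors with Cell Ranger, and Seurat and mm10 are also named, per the submitters' processing notes, with versions not given in the sources used here. Cells under 1000 UMIs or 500 genes, or above 10% mitochondrial UMIs, were dropped, and likely doublets were removed at 0.8% per 1000 cells by similarity to simulated pairs. Cells were gated by UMIs of marker genes, and counts were summed per library and class (at least 20 cells). Tests were edgeR 4.0.16 quasi-likelihood fits with TMM scaling on genes passing filterByExpr, Benjamini-Hochberg adjusted over all genes at 0.05. Stage was fitted in the 4 controls, genotype in 6 libraries with stage as a term, and classes with library as a term. An SE is the log2 change divided by the root of its F. In data simulated on the real means and library sizes, 76% of 2-fold and 100% of 4-fold changes in the fibroblast stage comparison (13570 genes) were recovered. The simulation gave all genes the same fixed spread, had no batches and changed only well-counted genes. These shares therefore do not give the power of the test in the real libraries. DESeq2 1.42.0, no filter, doublets kept, cells in 2 gates left out, other gates, replicate blocks and each library left out were tried as alternatives. Per-library ratios add 1 CPM, and 3 UMIs is the floor. Collagen genes were described in full from 20 CPM and counted by order from 5 CPM. Full statistics were given first for the largest changes past the test, up to about 12 per comparison, or the largest changes where fewer than 4 passed, and other collagen genes were named for their role with their values known. The members and gene lists were chosen with earlier results of these data known.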

Additional observations from a re-analysis of the deposited data

Results flagged for a closer look

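In control fibroblasts the stage change of 4 collagen genes differed between Wnt-high and Wnt-low cells by edgeR's interaction test. The log2 stage change in Wnt-high cells minus that in Wnt-low cells was 2.42 for Col8a1 and 0.54 for Col3a1, and −2.21 for Col11a1 and −1.63 for Col9a2. Each rests on 2 libraries per stage. Col9a2 was at 0.706 by DESeq2 (adjusted p) and lost its call there, and Col8a1, Col9a2 and Col11a1 were not called without E14.5 control replicate 1. Wnt-high cells of the controls had median UMIs of 8043.5 to 11902.5 per cell and Wnt-low cells 7571.5 to 10124, and the part of depth was not tested.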

How the results depend on the processing

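The stage calls depended on the fit, and the fit with the inferred batch compared stage as 1 library against 1. In fibroblasts edgeR called 0 collagen genes, DESeq2 13, edgeR with no filter on low counts 19, the 3-level inferred batch 18, and fits without 1 library 2 (without E14.5 control replicate 1) to 16 (without E14.5 control replicate 2). In keratinocytes these were 0, 3, 7 and 10, and 1 to 7 without 1 library. With the replicate number as a block (replicate block), 15 were called in fibroblasts and 9 in keratinocytes. Same-numbered replicates deviated together with a correlation of 0.396 in fibroblasts, but only 2 pairs exist and the labels do not tie the numbers. For genotype in fibroblasts, 0 became 3 with DESeq2 and 6 with the inferred batch. The Wnt comparison gave 16 to 24 calls under the alternatives run, always with more genes lower than higher. Endothelial calls went from 29 to 19 without E14.5 control 1 and E14.5 LOF. Interaction calls went from 4 to 7 with no filter, and 2 to 6 without 1 library. Collagen genes above fibroblasts in both chondrocyte libraries went from 13 to 7 with cells in 2 gates left out and 8 with a gate of 8 UMIs. The share over all genes was not computed for these counts. The causes were not tested. Of all recomputed values, 0 reversed. Over all genes, stage in fibroblasts gave 25 calls, 580 with DESeq2, 1645 with no filter, 607 with the replicate block and 1675 with the inferred batch. Stage in keratinocytes gave 33 calls over all genes, 429 with DESeq2 and 796 with no filter. Genotype in fibroblasts gave 0 over all genes and 288 with DESeq2. The chondrocyte gate had too few cells for a test. Leaving out the E14.5 pair was chosen after seeing the data. With 1 LOF library per stage, and endothelial gates of 13 to 62 cells, low genes are limited by depth.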
